A study of Homo sapiens with 12 samples.

Results

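The genes described here are 31 established transcriptional targets of the tumor suppressor p53, picked by symbol from the 60664 genes of the deposited expression table. All 31 were found, each on a single row. They were split by role into 7 arrest genes, 3 death receptor genes, 10 genes of the mitochondrial and other death machinery, 3 feedback genes, 4 DNA repair genes and 4 metabolic genes. Of these, 30 had enough reads to be tested in each comparison, and SPATA18 did not.

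p53 is a transcription factor that is stabilized and acetylated after DNA damage or other stress, and it then binds paired decamer sites near genes that stop the cell cycle, repair DNA or start apoptosis. Its target MDM2 is the ubiquitin ligase that returns p53 to a low level, so the pathway holds its own brake. The deacetylase SIRT1 removes acetyl groups from p53, and the nuclear protein DBC1, the product of CCAR2, is known to bind and inhibit SIRT1. The cells were MDA-MB-231, a human triple-negative breast cancer line that grows in culture.

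RNA was sequenced from 12 libraries of this line, 4 in each of 3 groups. The first group was wild type (WT) and untreated, kept in normoxia. The second was WT held at 1% O2 for 24 hr (hypoxia). The third was a CCAR2 knockout (KO), untreated and in normoxia, made with a lentiviral CRISPR guide against CCAR2. Whether the KO cells were 1 clone or a pool was not stated, and the WT groups were not said to carry an empty vector. No group joined the knockout to hypoxia. The comparisons address whether the RNA of these genes differed under low oxygen or with loss of CCAR2. The direct fit of KO against hypoxia tests where the 2 conditions differ. Binding and activity of p53 were not measured in these libraries, and whether p53 had a part in any difference was not tested. The hypoxia and KO comparisons share the 4 WT normoxia libraries, so their values are set side by side without a test of likeness. The methods speak of biological replicates, but in a smaller number than the 4 libraries a group, and no label ties a library to a culture. The p-values therefore measure the spread between these libraries, some of which may be technical.

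Library sums ran from 154 to 214 M estimated reads (M, mega) in WT normoxia, from 76.4 to 196 M in hypoxia and from 68.6 to 152 M in KO, so every KO library was shallower than every WT normoxia library. With all counts divided by 4, the same members were called in KO against WT. Dividing every library alike keeps the ratio of depths between the groups, so this does not test that imbalance. CCAR2 itself averaged 146 ± 3.1 CPM (reads scaled to a common library size by the trimmed mean of M values, TMM, given as mean ± SD, n = 4) in WT normoxia, 149 ± 5.0 in hypoxia and 57.8 ± 2.8 in KO. Its KO libraries lay below every WT library, with a log2 fold change of -1.34 (SE 0.04). CA9, the carbonic anhydrase used as a marker of hypoxia, averaged 0.0649 CPM in WT normoxia, 4.90 in hypoxia and 0.112 in KO. The mesenchymal marker VIM was abundant (4591 to 5196 CPM by group), while ESR1, PGR and CDH1 stayed at or below 0.307 CPM, as the line is known for. ERBB3 at 9.77 to 12.5 and GATA3 at 5.10 to 7.09 CPM were present at low level. The 5 markers of other cells summed to between 89.3 and 99.8 CPM in WT normoxia, 100.4 to 119 in hypoxia and 78.1 to 88.0 in KO, nearly all of it CD68, with CD3E and ALB at 0 in every WT normoxia and KO library. Of them PECAM1 was higher in KO (log2 fold change 1.11, SE 0.14), and its part in the KO values was not tested. In bulk RNA, a change in the share of cells that express a gene and a change in RNA per cell cannot be told apart.

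The promoters of 25 of the 31 genes were found in the RefSeq table (GRCh38.p14) as 36 windows, each running from 250 bases before to 50 bases after a transcript start. GADD45A, PHLDA3, RRM2B, TNFRSF10A, TNFRSF10B and TP53INP1 were not matched. A decamer of the p53 consensus was present in 6 of the 36 windows (16.7%) against 6.63% of all 35116 windows, and these 6 are printed because they show where the known p53 motif lies close to a member's start. Each runs 5′ to 3′ along the gene's strand, and capitals mark the decamer.
DDB2: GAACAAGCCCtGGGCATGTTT
FAS: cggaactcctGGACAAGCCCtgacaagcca
SESN1: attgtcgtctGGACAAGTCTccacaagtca
AEN: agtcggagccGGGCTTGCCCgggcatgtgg
FDXR: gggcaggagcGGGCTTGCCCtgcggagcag
PLK2: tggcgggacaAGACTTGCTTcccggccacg
The DDB2 stretch, at chr11:47214979-47214999 on the plus strand, lay 6 to 26 bases after the start within exon sequence and held a pair of decamers. Such a pair, with a spacer of at most 13 bases, was found in 1 of the members' 36 windows (2.78%) and in 10 of all 35116 windows (0.0285%). The FAS stretch (chr10:88991299-88991328 on the plus strand) and the SESN1 stretch (chr6:109009018-109009047 on the minus strand) were intronic, and each held a single full decamer. Those of AEN (chr15:88621296-88621325 on the plus strand), FDXR (chr17:74872986-74873015 on the minus strand) and PLK2 (chr5:58460199-58460228 on the minus strand) fell on untranslated or noncoding exon sequence. The core of the hypoxia response element, ACGTG or GCGTG on either strand, was in 19 of the 36 windows (52.8%) against 48.4% of all windows. A match is a description of the letters and does not show binding.

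Per length, the levels of the 31 genes spread over nearly 4 orders of magnitude in WT normoxia. BAX, the pore-forming protein of the outer mitochondrial membrane, was the highest at 40.8 CPM per kb of exon, followed by PMAIP1 at 28.0 and CCNG1 at 26.6. CDKN1A stood at 18.6 and MDM2 at 10.8 CPM per kb. At the low end BTG2 had 0.217 CPM per kb, and SPATA18 had 0.00516 with 0 to 12 reads in each library. Summed over the 31 genes, the members took 0.119% to 0.121% of the estimated reads in WT normoxia, 0.112% to 0.115% in hypoxia and 0.126% to 0.131% in KO, without overlap between the groups. Abundant members weigh most in this sum, and no such sum was taken for other gene sets. Taken gene by gene, the median log2 fold change in KO against WT was 0.01, with 15 members positive and 15 negative. The replicates were close for most members, with a median coefficient of variation over the 30 tested members of 5.42% in WT normoxia, 6.95% in hypoxia and 5.90% in KO. Among the 30 tested members, BTG2 varied most in each group (30.9%, 58.7% and 68.8%).

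**Figure D1:**
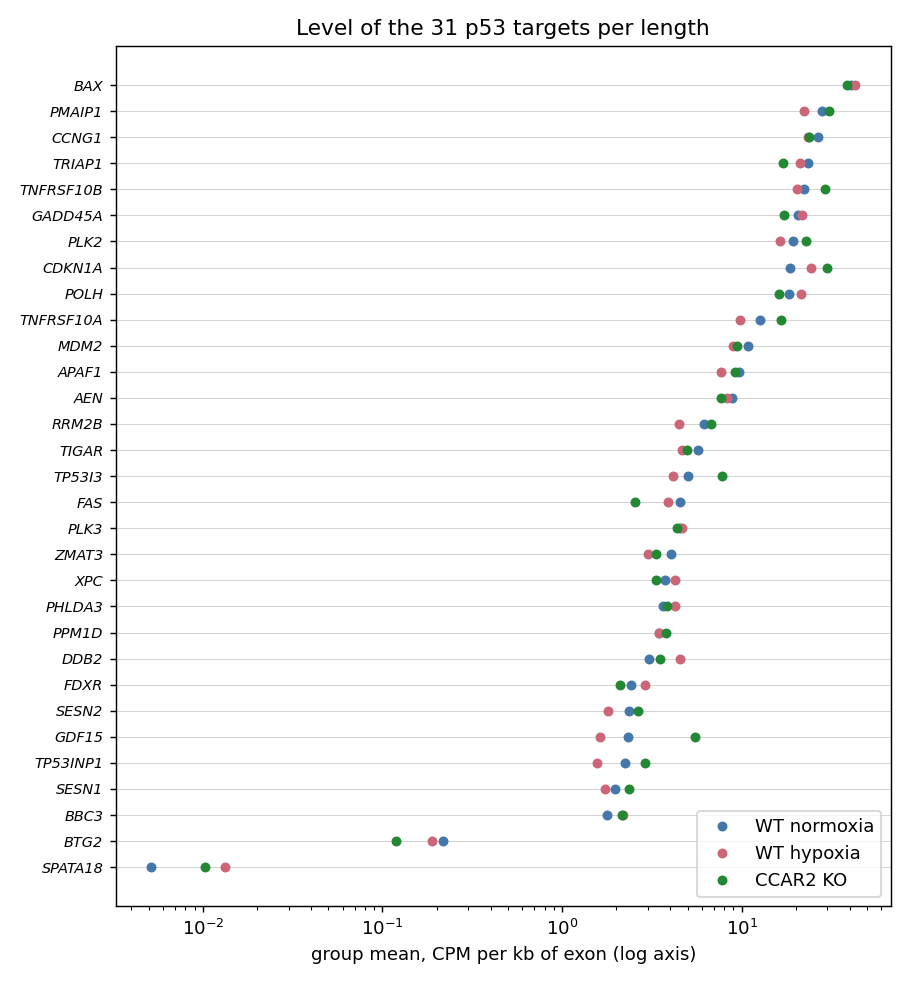
Mean level of each of the 31 genes in WT normoxia (blue), WT hypoxia (red) and CCAR2 KO (green), in CPM per kb of exon on a log axis, ordered by the WT normoxia level. BAX is at the top at 40.8 CPM per kb in WT normoxia, and BTG2 and SPATA18 lie far below the rest.

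A gene was called where edgeR's quasi-likelihood test gave a Benjamini-Hochberg adjusted p under 0.05 over all genes tested and the log2 fold change was at least 0.5 in size. Under hypoxia 1 of the 30 tested members was called higher (DDB2) and 2 lower (GDF15 and TP53INP1), while over all 21776 genes tested 5.83% were called higher and 1.43% lower. By the adjusted p alone, 3 members were higher and 12 lower, where the background was 11.6% higher and 12% lower. Their median log2 fold change was -0.19, against 0.01 over all genes, and 19 of the 30 values were negative. The members are well read genes, and among genes with a mean of at least 100 counts the background by adjusted p alone was 15.02% higher and 17.3% lower.

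In CCAR2 KO against WT in normoxia, 3 members were called higher (CDKN1A, GDF15 and TP53I3) and 1 lower (FAS), against 6.73% and 2.94% of the 21410 genes tested. By the adjusted p alone 9 members were higher and 9 lower, with a background of 14.9% and 15.4%. Among genes with a mean of at least 100 counts this background was 19.4% and 21.8%. The median of the members was 0.01, the same as over all genes, with 15 positive and 15 negative values.

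KO set directly against hypoxia gave 7 members called higher (GDF15, TP53I3, TP53INP1, TNFRSF10A, RRM2B, SESN2 and TNFRSF10B) and 1 lower (FAS). Over the 21158 genes tested there, 7.08% were called higher and 7.88% lower. By the adjusted p alone the members divided into 12 higher and 6 lower, where the background was 17.1% and 17.8%, and their median was 0.08 against -0.02 over all genes. Among genes with a mean of at least 100 counts the background by adjusted p alone was 23.2% and 23.5%. In level, the hypoxia group had the lowest of the 3 group means for 15 of the 31 genes and the KO group the highest for 12, against 33.9% and 35.3% of 22612 genes. Libraries of the 2 groups did not overlap for 15 of the 30 tested members in hypoxia against normoxia, where 26.4% of all genes did not. The counts were 17 in KO against WT (30.8% of all genes) and 18 in KO against hypoxia (35.9%). These shares were not taken among well read genes alone.

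**Figure D2:**
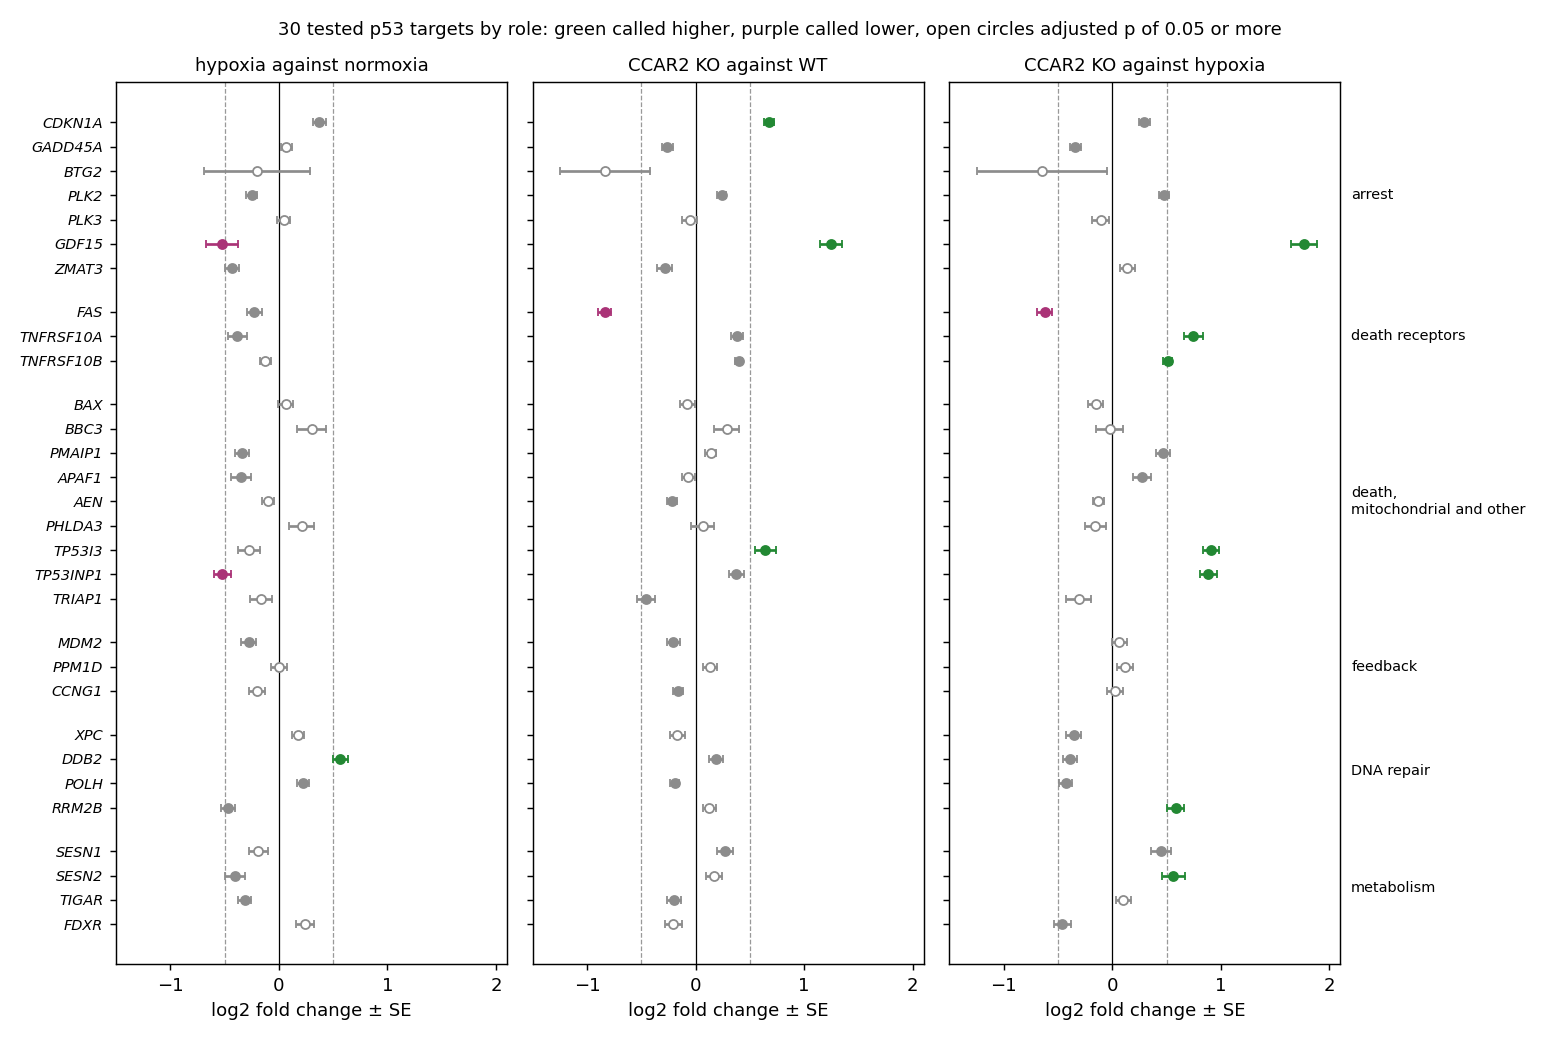
Log2 fold change (± SE, 4 libraries a group) of the 30 tested members in hypoxia against normoxia, CCAR2 KO against WT and CCAR2 KO against hypoxia, grouped by role. Green and purple mark genes called higher and lower, open circles an adjusted p of 0.05 or more, and dashed lines log2 fold changes of 0.5 either way. GDF15 moved farthest in KO, at 1.25 against WT and 1.76 against hypoxia, while the 3 feedback genes stayed between the dashed lines.

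Among the arrest genes, CDKN1A encodes the cyclin-dependent kinase inhibitor that carries much of the p53 arrest. It lies at chr6:36676460-36687339 (GRCh38). Its level was 52.3, 57.9, 57.0 and 59.8 CPM in the WT normoxia libraries, 78.3, 74.8, 69.0 and 73.6 in hypoxia and 89.5, 87.8, 93.1 and 93.0 in KO. The 3 groups did not overlap, and every KO library exceeded every hypoxia library, which in turn exceeded every WT normoxia library. KO against WT was called higher by 1.60-fold (log2 0.68, SE 0.05, edgeR adjusted p = 6.1e-07). The log2 difference was 0.37 (SE 0.06, edgeR adjusted p = 0.0015) in hypoxia and 0.29 (SE 0.05, edgeR adjusted p = 0.00081) in KO against hypoxia, both under the fold threshold. A single antisense transcript, DINOL, covers 4.79% of its exon bases.

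GDF15, a secreted cytokine of the TGF-beta family, moved farthest among the members in KO. It is at chr19:18374731-18389176 (GRCh38). The 4 WT normoxia libraries had 3.87, 5.06, 5.27 and 5.22 CPM, the hypoxia libraries 3.93, 2.88, 3.79 and 2.98, and the KO libraries 11.7, 11.1, 11.3 and 12.1. All KO libraries stood far above the others, while hypoxia and WT normoxia overlapped through WT normoxia replicate 1. KO was called 2.37-fold higher than WT (log2 1.25, SE 0.10, edgeR adjusted p = 2.5e-06) and 3.39-fold higher than hypoxia (log2 1.76, SE 0.12, edgeR adjusted p = 8.3e-07). Hypoxia against normoxia was called lower, at -0.53 (SE 0.15, edgeR adjusted p = 0.023). This call was lost with upper-quartile normalization (-0.47) and without any 1 of WT normoxia replicates 2, 3 or 4 or hypoxia replicates 2 or 4, with an adjusted p of up to 0.07.

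The other arrest genes were not called in any comparison. PLK2, a stress-responsive polo-like kinase, averaged 92.6 ± 4.9 CPM in WT normoxia, 78.3 ± 2.1 in hypoxia and 109 ± 3.4 in KO (n = 4 each), and KO exceeded hypoxia by 0.48 log2 units (SE 0.04, edgeR adjusted p = 9.4e-06), just short of the fold threshold. The RNA-binding zinc finger gene ZMAT3 went from 39.0 CPM in WT normoxia to 28.96 in hypoxia and 31.98 in KO, lower by the adjusted p alone in both (-0.44 and -0.28). GADD45A, which binds PCNA and cyclin-dependent kinases after stress, averaged 42.8, 45.1 and 35.7 CPM in the same order, with a log2 difference of -0.26 in KO against WT (edgeR adjusted p = 0.0022). PLK3 lay within 15.1 to 16.3 CPM in all 3 groups. BTG2, an antiproliferative factor, was near the limit of detection, with 6 to 145 reads a library, and its KO value of -0.84 had an SE of 0.41 (edgeR adjusted p = 0.16). Without KO replicate 3 the value was -1.40 and passed the test.

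The 3 death receptor genes did not move together in KO. FAS, the receptor of FAS ligand (chr10:88990582-89015785, GRCh38), with an intronic p53 decamer (printed above) before 1 of its 3 RefSeq starts, measured 19.6, 19.6, 20.3 and 17.8 CPM in WT normoxia, 16.6, 17.9, 15.1 and 16.9 in hypoxia and 11.1, 10.8, 10.6 and 10.8 in KO. The KO libraries were the lowest of all 12, at 10.6 to 11.1 CPM, clear of both WT groups. FAS was called lower by 1.79-fold in KO against WT (log2 -0.84, SE 0.06, edgeR adjusted p = 9.1e-07) and by 1.54-fold against hypoxia (log2 -0.62, SE 0.07, edgeR adjusted p = 5.2e-05). In hypoxia its log2 difference was -0.22 (edgeR adjusted p = 0.037), under the fold threshold. ACTA2, a gene on the opposite strand that covers 8.93% of the FAS exon bases, averaged 3.70, 6.25 and 2.17 CPM in WT normoxia, hypoxia and KO. Strand was not stated for the counting, so the shared bases cannot be assigned, and the ACTA2 level was below that of FAS in each group.

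TNFRSF10A and TNFRSF10B encode the receptors through which TRAIL starts apoptosis. TNFRSF10A (chr8:23190452-23225126, GRCh38) was read at 36.0, 36.0, 37.9 and 40.2 CPM in WT normoxia, 30.1, 23.8, 32.2 and 29.7 in hypoxia and 47.3, 46.6, 48.9 and 52.2 in KO. The hypoxia libraries were lowest and the KO libraries highest, without overlap. KO exceeded hypoxia by 1.68-fold (log2 0.75, SE 0.09, edgeR adjusted p = 4.9e-05), a call, from a KO difference of 0.38 and a hypoxia difference of -0.38 against the same WT libraries. The antisense genes TNFRSF10A-AS1 and AC100861.1 cover 16.6% of its exon bases, and their KO against hypoxia values were -0.03 (SE 0.23) and -0.00060 (SE 0.13).

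TNFRSF10B (chr8:23020133-23069179, GRCh38) had 117, 112, 113 and 115 CPM in WT normoxia, 108, 99.7, 108 and 105 in hypoxia and 150.0, 147, 154 and 151 in KO. Its KO libraries were the highest of all 12. KO against WT gave a log2 difference of 0.40 (SE 0.03, edgeR adjusted p = 3.5e-06), under the fold threshold, and KO against hypoxia was called at 0.51 (SE 0.04, edgeR adjusted p = 6.4e-06). The latter sat on the threshold and was lost with upper-quartile normalization (0.48) and without hypoxia replicate 2 (0.48) or KO replicate 3 (0.50).

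**Figure D3:**
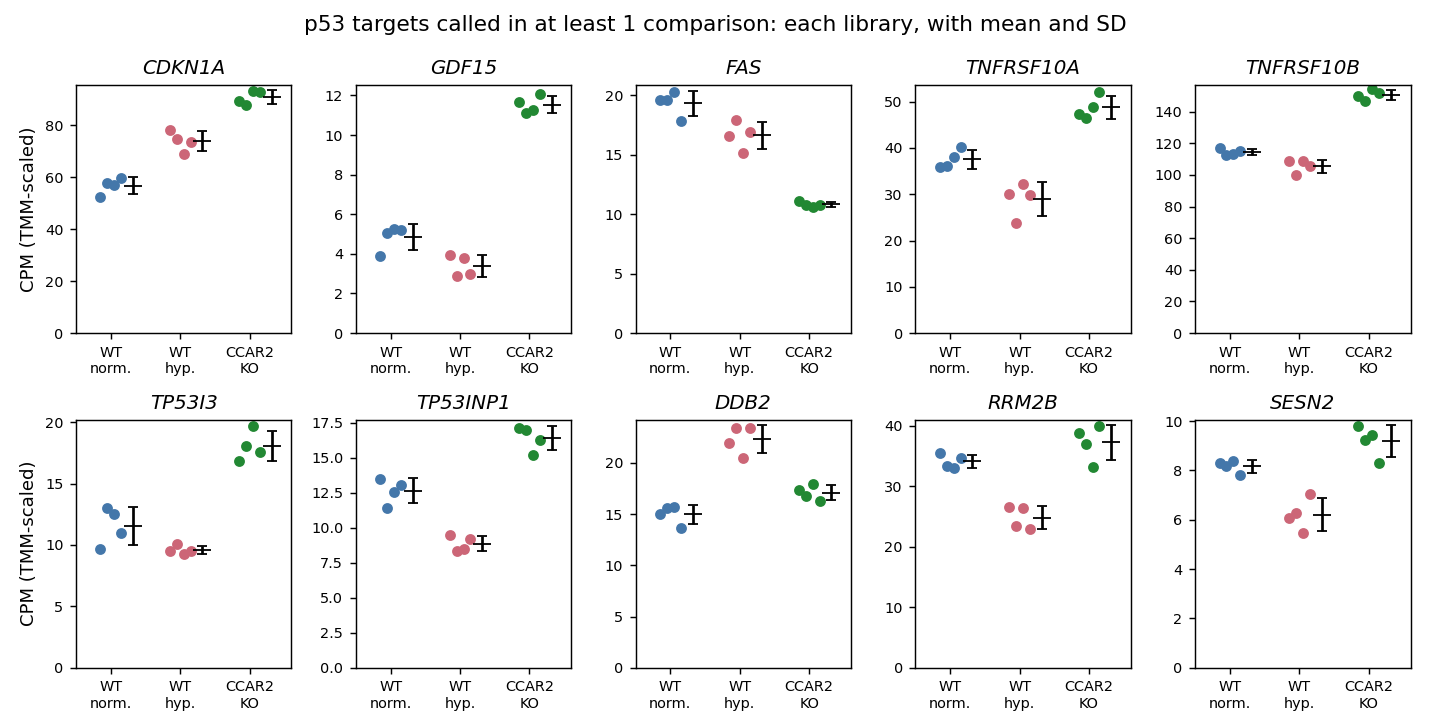
Level in each library (CPM, linear axis from 0) of the 10 members called in at least 1 comparison, with the mean and SD of 4 libraries beside the points. KO libraries are the highest for CDKN1A, GDF15, the TRAIL receptors, TP53I3 and TP53INP1 and the lowest for FAS, while DDB2 is highest in hypoxia.

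Of the 10 genes of the mitochondrial and other death machinery, the core effectors were not called. BAX averaged 106 ± 9.1 CPM in WT normoxia, 111 ± 6.8 in hypoxia and 100.2 ± 8.9 in KO (n = 4 each), and its differences of 0.06, -0.08 and -0.15 had adjusted p-values of 0.12 or more. BBC3, a BH3-only activator of BAX, averaged 5.63, 6.97 and 6.88 CPM, with differences of 0.30 (SE 0.13) and 0.29 (SE 0.12) in hypoxia and KO that did not pass the test. Its BH3-only relative PMAIP1 averaged 62.5, 49.6 and 68.8 CPM, with a log2 difference of -0.34 (SE 0.06, edgeR adjusted p = 0.0034) in hypoxia and 0.47 (SE 0.07, edgeR adjusted p = 0.00022) in KO against hypoxia. The latter passed the fold threshold without hypoxia replicate 2 (0.53) or KO replicate 3 (0.51). APAF1, the scaffold of the apoptosome, averaged 76.4, 60.3 and 73.0 CPM and was lower in hypoxia by the adjusted p alone (-0.35).

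TP53I3, a quinone oxidoreductase linked to oxidative stress in apoptosis (chr2:24077433-24085861, GRCh38), measured 9.64, 13.01, 12.5 and 10.998 CPM in WT normoxia, 9.54, 10.1, 9.29 and 9.50 in hypoxia and 16.9, 18.1, 19.7 and 17.6 in KO. Every KO library was above every WT library, and the WT groups overlapped. KO was 1.56-fold above WT (log2 0.64, SE 0.09, edgeR adjusted p = 0.00025) and 1.88-fold above hypoxia (log2 0.91, SE 0.07, edgeR adjusted p = 3e-06), and both were called. The hypoxia difference of -0.28 (SE 0.10, edgeR adjusted p = 0.066) did not pass.

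TP53INP1, a stress protein that acts in the nucleus and in autophagy (chr8:94925972-94949411, GRCh38), had 13.5, 11.4, 12.6 and 13.1 CPM in WT normoxia, 9.49, 8.31, 8.51 and 9.18 in hypoxia and 17.1, 17.0, 15.2 and 16.3 in KO. The 3 groups were apart, with hypoxia lowest and KO highest. It was called lower in hypoxia, by 1.43-fold (log2 -0.52, SE 0.08, edgeR adjusted p = 0.0013), and higher in KO than in hypoxia, by 1.84-fold (log2 0.88, SE 0.08, edgeR adjusted p = 6.3e-06). Against WT, KO differed by 0.37 (SE 0.07, edgeR adjusted p = 0.0017), under the fold threshold. The hypoxia call slipped under the fold threshold with upper-quartile normalization (-0.47), with counts divided by 4 (-0.50) and without WT normoxia replicate 1 or 4 or hypoxia replicate 2 or 3 (-0.49 to -0.50).

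The remaining genes of this role had small differences. TRIAP1, a small mitochondrial protein known to restrain apoptosis, averaged 33.9 CPM in WT normoxia, 30.4 in hypoxia and 24.6 in KO, and its KO difference of -0.46 (SE 0.08, edgeR adjusted p = 0.0012) crossed the fold threshold without WT normoxia replicate 4 or KO replicate 1 or 2 (-0.50 to -0.52). The nuclease gene AEN averaged 53.4, 49.98 and 45.9 CPM, with -0.22 in KO by the adjusted p alone. PHLDA3, a repressor of AKT, averaged 11.5, 13.4 and 12.04 CPM and passed in no comparison. A transcript on the same strand, AC096677.2, covers 19.1% of the PHLDA3 exon bases and averaged 0 CPM in each group, so the PHLDA3 counts are less certain. SPATA18, linked to mitochondrial quality control, was not tested.

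The feedback genes showed no call. MDM2, the ligase that degrades p53, had 155, 146, 142 and 133 CPM in WT normoxia, 116, 133, 117 and 110 in hypoxia and 135, 126, 115 and 123 in KO. Both conditions lay mostly below WT normoxia, touching or crossing its lowest library, with differences of -0.28 (SE 0.07, edgeR adjusted p = 0.013) in hypoxia and -0.20 (SE 0.06, edgeR adjusted p = 0.016) in KO. The 2 conditions differed by 0.06 (SE 0.07). CCNG1, a cyclin that recruits a phosphatase to MDM2, averaged 82.4, 72.0 and 73.5 CPM, with -0.20 (edgeR adjusted p = 0.072) in hypoxia and -0.17 (edgeR adjusted p = 0.016) in KO. PPM1D, the phosphatase that removes activating phosphates from p53, averaged 17.4, 17.5 and 19.0 CPM and passed in no comparison.

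Among the DNA repair genes, DDB2 carried the 1 member call that was higher in hypoxia. It encodes a damage sensor of nucleotide excision repair (chr11:47214465-47239240, GRCh38), and its promoter held the paired decamers printed above. Its values were 14.96, 15.6, 15.7 and 13.6 CPM in WT normoxia, 21.97, 23.4, 20.5 and 23.4 in hypoxia and 17.4, 16.7, 18.0 and 16.3 in KO. Every hypoxia library was above every other library, and KO lay just above WT normoxia. Hypoxia was 1.48-fold higher than normoxia (log2 0.57, SE 0.07, edgeR adjusted p = 0.00031). KO was 0.19 above WT (SE 0.06, edgeR adjusted p = 0.042) and 0.39 below hypoxia on the log2 scale (-0.39, SE 0.06, edgeR adjusted p = 0.0007), neither of them a call.

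RRM2B, the p53-inducible subunit of ribonucleotide reductase (chr8:102204502-102239118, GRCh38), was read at 35.4, 33.4, 33.0 and 34.6 CPM in WT normoxia, 26.6, 23.4, 26.4 and 22.9 in hypoxia and 38.7, 37.0, 33.2 and 39.9 in KO. The hypoxia libraries were the lowest of all 12, and KO overlapped WT normoxia through replicate 3. KO exceeded hypoxia by 1.497-fold (log2 0.58, SE 0.07, edgeR adjusted p = 0.00011), which was called. The hypoxia difference of -0.47 (SE 0.06, edgeR adjusted p = 0.00064) passed the fold threshold only without hypoxia replicate 1 (-0.50).

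POLH, a polymerase that copies past damaged bases, averaged 65.0, 76.2 and 56.8 CPM in WT normoxia, hypoxia and KO, with 0.22 in hypoxia, -0.19 in KO and -0.43 in KO against hypoxia, each past the adjusted p alone. XPC, a damage sensor that works with DDB2, averaged 17.9, 20.3 and 15.9 CPM, and its KO against hypoxia value was -0.35 (SE 0.07, edgeR adjusted p = 0.0023). Other annotated genes cover 30.4% of the XPC exon bases, so its counts are less certain. In KO against hypoxia 3 of the 4 repair genes were lower by the adjusted p alone, while RRM2B was higher.

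Of the 4 metabolic genes, SESN2, a stress-induced inhibitor of mTORC1 (chr1:28259527-28282491, GRCh38), had 8.29, 8.16, 8.36 and 7.81 CPM in WT normoxia, 6.06, 6.26, 5.44 and 7.06 in hypoxia and 9.81, 9.24, 9.44 and 8.31 in KO. The hypoxia libraries lay below all others, and WT normoxia and KO met near 8.3 CPM. KO was called 1.48-fold higher than hypoxia (log2 0.56, SE 0.10, edgeR adjusted p = 0.0013). The hypoxia difference was -0.40 (SE 0.09, edgeR adjusted p = 0.0096) and the KO difference 0.17 (SE 0.07, edgeR adjusted p = 0.11).

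Its relative SESN1 averaged 10.1, 8.89 and 12.2 CPM in WT normoxia, hypoxia and KO, with 0.27 in KO (edgeR adjusted p = 0.012) and 0.45 in KO against hypoxia (edgeR adjusted p = 0.0026). The latter reached 0.52 without hypoxia replicate 2. TIGAR, which lowers glycolytic flux, averaged 23.0, 18.6 and 20.04 CPM, lower by the adjusted p alone in hypoxia (-0.31) and KO (-0.20). An overlapping transcript on the same strand, AC008012.1, covers 42.6% of its exon bases and was listed at 0 in every library, so the TIGAR counts are uncertain. FDXR, the mitochondrial ferredoxin reductase, averaged 8.73, 10.4 and 7.57 CPM, with -0.46 in KO against hypoxia (SE 0.08, edgeR adjusted p = 0.001).

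The regulators of p53 bear on the same pathway. MDM4, the MDM2 partner that masks p53, averaged 37.5, 41.1 and 38.6 CPM in WT normoxia, hypoxia and KO and passed in neither comparison. SIRT1 averaged 30.1, 23.3 and 29.1 CPM, with -0.38 in hypoxia (SE 0.07, edgeR adjusted p = 0.0044) and -0.05 in KO (SE 0.06, edgeR adjusted p = 0.54). TP63, a p53 family member with its own DNA-binding domain, was low throughout but higher in KO, at 1.44, 0.760, 1.31 and 1.65 CPM against 0.461, 0.167, 0.393 and 0.249 in WT normoxia and 0.207, 0.367, 0.176 and 0.233 in hypoxia. Its KO difference was 2.02 (SE 0.32, edgeR adjusted p = 0.00049), over a mean of 113 reads. PPP1R13L, an inhibitor of p53, was higher in hypoxia by 0.63 (SE 0.06, edgeR adjusted p = 4.6e-05) and 0.85 below it in KO (log2 -0.85, SE 0.05, edgeR adjusted p = 1.5e-07). Of the 22 regulators, 1 was called higher and 0 lower in hypoxia (with 2 higher and 5 lower at an unadjusted p under 0.05, and 0 lower also with DESeq2 and limma-voom), 1 higher and 1 lower in KO against WT, where the lower one was CCAR2, and 1 higher and 2 lower in KO against hypoxia. The last count higher was 2 with limma-voom, with the replicate block and without any 1 of hypoxia replicates 1, 2 or 3 or KO replicate 2. Without hypoxia replicate 2, 1 regulator was called lower in hypoxia. Over all genes 5.83% were called higher and 1.43% lower in hypoxia. The shares were 6.73% and 2.94% in KO against WT and 7.08% and 7.88% in KO against hypoxia. By the adjusted p alone 2 regulators were higher and 4 lower in hypoxia, against 11.6% and 12% of all genes. The counts were 4 and 4 in KO against WT (14.9% and 15.4%) and 7 and 5 in KO against hypoxia (17.1% and 17.8%).

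A further 35 p53 targets outside the 31 were followed as a list, of which 34 were tested. In hypoxia 1 was called higher and 1 lower, in KO against WT 5 higher and 0 lower, and in KO against hypoxia 5 higher and 2 lower, with medians of -0.05, 0.03 and 0.11. The shares over all genes were 5.83% higher and 1.43% lower in hypoxia, 6.73% and 2.94% in KO against WT, and 7.08% and 7.88% in KO against hypoxia. The hypoxia count higher was 3 with upper-quartile normalization and 2 without hypoxia replicate 1 or 2. At an unadjusted p under 0.05, 7 of them were lower in KO against WT by edgeR, and DESeq2 and limma-voom also called 0. Of the 34 tested, 9 were higher and 8 lower in hypoxia by the adjusted p alone, against 11.6% and 12% of all genes. These counts were 11 and 2 in KO against WT (14.9% and 15.4%) and 14 and 7 in KO against hypoxia (17.1% and 17.8%). The calls in KO against WT were TNFRSF10C, a decoy TRAIL receptor (1.41, SE 0.23), TLR3, a sensor of double-stranded RNA (1.22, SE 0.14), ORAI3, a calcium channel (0.93, SE 0.09), the lysosomal fucosidase FUCA1 (0.84, SE 0.09) and TRIM22 (0.99, SE 0.30), which had under 100 reads on average. Next to hypoxia, KO was higher for TLR3 (1.91, SE 0.19), TNFRSF10C, TRIM22, FUCA1 (0.86, SE 0.09) and RNF19B (0.62, SE 0.08), and lower for TNFRSF10D (-0.63, SE 0.04), the second decoy receptor, and EPS8L2 (-0.58, SE 0.06). TRIM22 and the direct value of TNFRSF10C fell under the read minimum for naming and were named after their values were seen. In hypoxia ORAI3 was higher (0.65, SE 0.10) and TLR3 lower (-0.70, SE 0.21, edgeR adjusted p = 0.036, with overlapping groups). The TLR3 call was lost with upper-quartile normalization and when any library but hypoxia replicate 2 or WT normoxia replicate 3 was left out.

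Several members, such as GDF15, SESN2 and TP53INP1, are also known to answer other stress programs, so 12 genes of the integrated stress response were read beside them. In hypoxia 1 was called higher (VLDLR, 0.77, SE 0.08) and 1 lower (SLC7A11, -0.80, SE 0.07). In KO against WT 1 was higher (CHAC1, 0.52, SE 0.08) and 1 lower (PSAT1, -0.58, SE 0.04), and in KO against hypoxia 2 were higher (SLC7A11, 1.26, SE 0.07, and CHAC1, 0.86, SE 0.09) and 1 lower (STC2, -0.66, SE 0.21). The STC2 call was lost without any 1 of hypoxia replicates 1 or 3 or KO replicates 2, 3 or 4. The count higher in KO against WT was 0 with no filter and without WT normoxia replicate 2 or KO replicate 1, and 2 without KO replicate 3. In hypoxia it was 2 without hypoxia replicate 2. The medians were -0.14, -0.04 and -0.14. Over all genes 5.83% were called higher and 1.43% lower in hypoxia. The shares were 6.73% and 2.94% in KO against WT and 7.08% and 7.88% in KO against hypoxia. By the adjusted p alone 2 of the 12 were higher and 6 lower in hypoxia, against 11.6% and 12% of all genes. The counts were 3 and 3 in KO against WT (14.9% and 15.4%) and 3 and 5 in KO against hypoxia (17.1% and 17.8%). Whether this program had a part in the members' values was not tested.

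**Figure D4:**
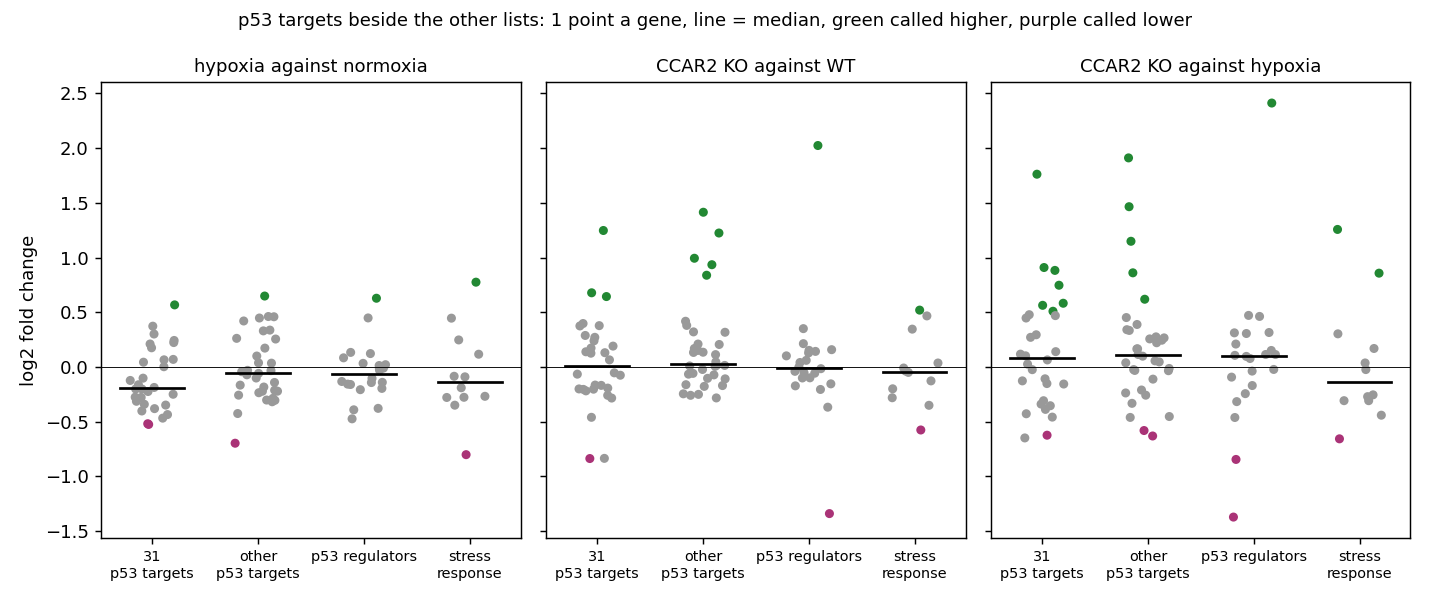
Log2 fold change of each tested gene in 4 lists (the 31 p53 targets, the further p53 targets, the p53 regulators and the integrated stress response) in the 3 comparisons, with the median as a line and called genes in green (higher) or purple (lower). The medians lie between -0.19 and 0.11. In KO against WT the highest points are TP63 among the regulators (2.02), then TNFRSF10C (1.41) and GDF15 (1.25). In KO against hypoxia the highest point, among the regulators, is at 2.41.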

How the data were processed

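RNA of 12 libraries was sequenced. The submitters' processing notes name HISAT2, SAMtools and featureCounts, while the study's methods describe transcript assembly with StringTie, and the deposited values are whole-number estimated counts per gene. The labels name another RNA and library kit than the methods, which also state fewer replicates than the 4 libraries a group. Genome build and strand setting are not given in the sources used here. Positions, exon lengths and overlaps came from GENCODE (GRCh38), and promoter letters from RefSeq. All columns were used.

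Counts of 8 libraries a comparison were filtered (filterByExpr), TMM-normalized and tested with edgeR 4.0.16 (R 4.3.3) by its quasi-likelihood test with Benjamini-Hochberg adjustment over all genes tested. The steps were tested on simulated data. CPM came from 1 TMM scaling of the 12 libraries, and SE from the log2 fold change over the square root of F, which includes the spread between libraries. Members, lists and tests were chosen with earlier results of these data known. All 31 members were named, with each library's value where called. Of the other lists, TP63, MDM4, SIRT1, CCAR2 and up to 3 called genes a comparison with the largest change and a mean of at least 100 counts were named, and 1 further gene of that rule is not reported here. DESeq2 1.42.0, limma 3.58.1 and other filters, scalings and thresholds were alternatives.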

Additional observations from a re-analysis of the deposited data

Results flagged for a closer look

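Within groups of 4 libraries, Dixon's test picked out 4 of the 93 member groups, where chance alone gives about 4.65. GDF15 in WT normoxia replicate 1 was the lowest of its group, at 3.87 CPM against 5.06 for the next (ratio 0.846). GADD45A in hypoxia replicate 3 was the highest, at 46.9 against 44.7 CPM (ratio 0.836). PPM1D in KO replicate 3 was the lowest, at 17.2 against 19.4 CPM (ratio 0.836). SESN1 in hypoxia replicate 2 was the highest, at 10.2 against 8.62 CPM (ratio 0.852). Without hypoxia replicate 2, the KO against hypoxia difference of SESN1 moved from 0.45 to 0.52 on the log2 scale.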

How the results depend on the processing

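The same members were called with RLE scaling, DESeq2, limma-voom, a minimum of 10 counts, no filter and all 12 libraries in 1 fit. With upper-quartile normalization the hypoxia count fell to 1, with 0 lower, and with counts divided by 4 there was 1 lower. By the adjusted p alone the counts were 15 in hypoxia (3 higher, 12 lower), 18 in KO against WT (9 and 9) and 18 in KO against hypoxia (12 and 6). At a log2 fold change of at least 1, they were 0 in hypoxia (0 higher and 0 lower), 1 in KO against WT and 1 in KO against hypoxia (1 higher, 0 lower in each), the 1 being GDF15. Leaving out 1 library at a time, the calls ran from 1 to 4 in hypoxia (0 to 3 lower), from 4 to 5 in KO against WT (1 to 2 lower) and from 8 to 9 in KO against hypoxia.

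With the replicate block the count of members called lower in KO against WT was 2, BTG2 being added at -0.98 (edgeR adjusted p = 0.049), and the counts in the other 2 comparisons were the same. Same-numbered libraries did not deviate together throughout (correlations from -0.0823 to 0.245), so the numbers were not taken to pair them. PPM1D in hypoxia changed sign around 0, at -0.011 with limma-voom, -0.019 without the filter, -0.00054 with the replicate block and -0.031 to 0.061 leaving out 1 library. Leaving out 1 library also turned the sign of BTG2 in hypoxia (-0.39 to 0.14), PHLDA3 in KO against WT (-0.026 to 0.12), and BBC3 (-0.11 to 0.054) and CCNG1 (-0.018 to 0.098) in KO against hypoxia, none of them called. The cause was not tested. BTG2 and SPATA18 had the fewest reads among the members.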
